A study of Mus musculus with 8 samples.

Results

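Caudal epiblast cells were identified in chimeric mouse embryos as the cells that carried the label caudal epiblast in the combined annotation made by the authors. This label was held by 891 of the 28723 cells in the table, 448 of them Eomes-KO and 443 WT host. The embryos were made by injecting embryonic stem cells (ESC) into wild-type C57BL/6 blastocysts and were collected whole at E8.5. The injected ESC were male, expressed the red fluorescent protein tdTomato and were Eomes null through a loss-of-function allele, and 4 independent clones were used. Embryos were pooled into 4 pools, about 4 embryos per tube, and the tdTomato+ Eomes-KO cells and the tdTomato- WT host cells were sorted apart and sequenced as 8 libraries, 4 per genotype. Host cells were unmodified and came from embryos of either sex. No library of injected WT ESC was analysed here, so loss of Eomes and ESC origin cannot be told apart, and a genotype difference may also hold differences between the clones.

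The caudal epiblast is the posterior part of the epiblast that persists beside and behind the primitive streak after gastrulation has begun. Its cells are known for Nkx1-2, a homeobox gene of the preneural posterior epiblast, for the growth factor genes Fgf8 and Wnt3a, which act in the streak region, and for Cdx1, a caudal homeobox gene. They border on and feed the neuro-mesodermal progenitors (NMPs), which make spinal cord and somites as the body axis extends, and the mesoderm that leaves the posterior streak. Eomes, a T-box transcription factor of the early epiblast and primitive streak, is needed for definitive endoderm and cardiac mesoderm. Expression was not analysed here, since the table holds labels and quality measures and no counts per gene. The 4 markers could therefore not be set against the label, and everything below concerns cells that mapping called caudal epiblast.

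The Eomes-KO libraries held 602, 1153, 3346 and 3465 cells and the WT host libraries held 2414, 3791, 5819 and 8133 cells, and values per library are given in this order throughout. Summed over cells, a library held 19370600 to 57481950 UMIs (unique molecular identifiers, each standing for 1 captured transcript) in Eomes-KO and 20512404 to 66414390 in WT host. Cell barcodes were nearly all particular to 1 library. Of 28643 distinct barcodes 80 occurred in more than 1 library, and 9 caudal epiblast cells carried such a barcode.

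The first question was whether Eomes-KO cells contributed to the caudal epiblast more or less than WT host cells. Caudal epiblast cells numbered 49, 73, 167 and 159 in the Eomes-KO libraries, against 55, 22, 211 and 155 in the WT host libraries. Shares were taken of the epiblast-derived cells, 8561 in Eomes-KO and 19284 in WT host, which leave out visceral, parietal and extraembryonic endoderm and extraembryonic ectoderm as the study did. In the Eomes-KO libraries the shares were 8.15% (95% exact Clopper-Pearson interval 6.09 to 10.6), 6.35% (5.01 to 7.92), 4.99% (4.28 to 5.79) and 4.59% (3.92 to 5.34). In the WT host libraries they were 2.30% (1.73 to 2.98), 0.585% (0.367 to 0.885), 4.09% (3.57 to 4.67) and 1.94% (1.65 to 2.27). Every Eomes-KO library therefore lay above every WT host library. The gap was narrow, because the WT host library of 5819 cells came close to the Eomes-KO library of 3465 cells and their intervals overlapped. These intervals cover counting error only, and the spread between libraries of one genotype was wider.

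The mean share was 6.02% ± 1.61 in Eomes-KO and 2.23% ± 1.45 in WT host libraries (SD, n = 4 each). Their difference of 3.79 percentage points had p = 0.029 in a two-sided exact permutation test, the smallest that 4 against 4 libraries allow. In edgeR's quasi-likelihood test over 33 cell types, the estimate for the caudal epiblast was 1.41 as a log2 fold change, with a standard error of 0.468 and an adjusted p of 0.013. Such calls were common in these data. Of the types tested, 21.2% were called higher in Eomes-KO and 48.5% lower, and the same shares of types had groups that did not overlap in that direction. Caudal epiblast ranked 7 of 33 by fold change.

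How large the difference was depended on what the cells were set against. The shares of a library add up to the whole, which included blood types. With erythroid and blood progenitor cells and cells labelled EMP left out, an alternative chosen after seeing the data, the log2 fold change was 1.01 (adjusted p = 0.043, edgeR). With DESeq2's ratio size factors, which moved the median over all types by -0.91, it was 0.55 (adjusted p = 0.18). Without the WT host library of 8133 cells the edgeR value was 1.35 (adjusted p = 0.057). The exact permutation p of the mean share was 0.057 without any 1 of the Eomes-KO libraries or without the WT host library of 3791 cells.

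**Figure D1:**
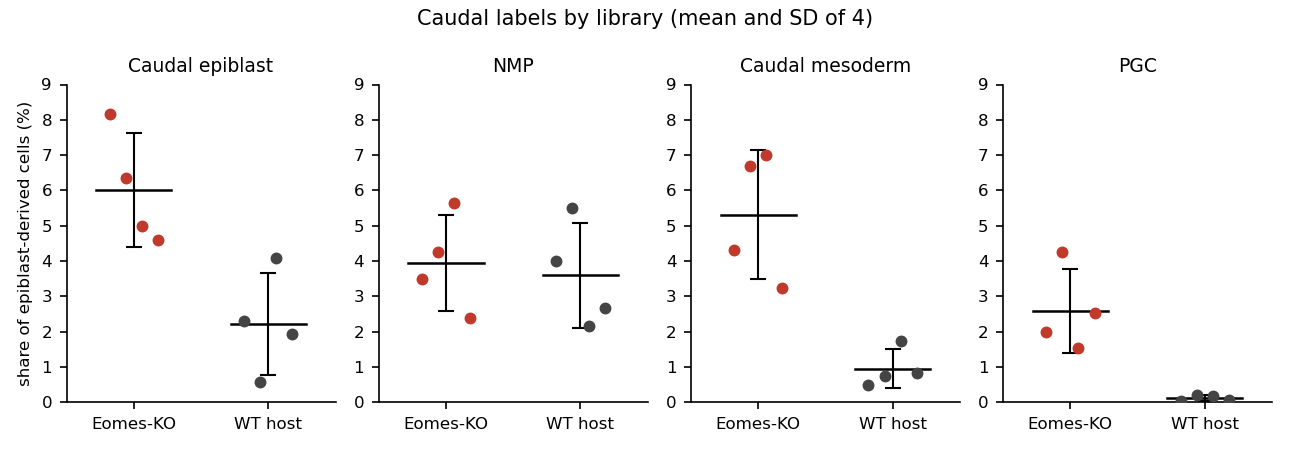
Share of epiblast-derived cells (%, vertical axis) labelled caudal epiblast, NMP, caudal mesoderm and PGC in each library, Eomes-KO (red) left of WT host (grey), with points in the order of library size, lines for the mean and bars for 1 SD of 4 libraries (cut at 0). Caudal epiblast averages 6.02% in Eomes-KO and 2.23% in WT host libraries without overlap. Caudal mesoderm (5.31% and 0.955%) and PGC (2.59% and 0.123%) are also without overlap, and the NMP shares of the groups overlap.

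The caudal epiblast was next set against its neighbours at the tail end of the embryo, since a ratio of neighbouring labels needs no denominator. The neighbours were the NMPs, the caudal mesoderm, which is the mesoderm newly formed at the posterior end, and the primordial germ cells (PGCs), which arise from the posterior proximal epiblast and lie at the base of the allantois. The Eomes-KO libraries held 342 NMPs, 449 caudal mesoderm cells and 201 PGCs, and the WT host libraries 629, 196 and 23. As shares of epiblast-derived cells, caudal mesoderm and PGCs were themselves called higher in Eomes-KO, by more than caudal epiblast. Their log2 fold changes were 2.45 and 4.34 (adjusted p = 0.00013 and 1.1e-05, edgeR), and that of NMPs was 0.15 (adjusted p = 0.71, edgeR).

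For each NMP there were 2.33, 1.49, 0.884 and 1.92 caudal epiblast cells in the Eomes-KO libraries, against 0.573, 0.106, 1.88 and 0.724 in the WT host libraries. The groups overlapped, as the WT host library of 5819 cells lay among the Eomes-KO libraries and the Eomes-KO library of 3346 cells lay below it. With 0.5 added to both counts, the balance on a log2 scale averaged 0.63 ± 0.60 in Eomes-KO and -0.89 ± 1.71 in WT host libraries (SD, n = 4 each). The gap of 1.52 did not pass the exact permutation test (p = 0.11, adjusted p = 0.17 over the NMP and caudal mesoderm balances). The WT host library of 3791 cells, with 22 caudal epiblast cells beside 207 NMPs, was the lowest of the 8, and its removal brought the difference to 0.75. Removal of the WT host library of 5819 cells brought the difference to 2.12 (exact permutation p = 0.029, adjusted p = 0.057).

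For each caudal mesoderm cell there were 1.88, 0.948, 0.714 and 1.42 caudal epiblast cells in the Eomes-KO libraries, against 4.58, 0.786, 2.34 and 2.35 in the WT host libraries. Here the direction was the opposite one, with fewer caudal epiblast cells per caudal mesoderm cell in Eomes-KO. The log2 balance averaged 0.21 ± 0.61 in Eomes-KO and 1.06 ± 1.03 in WT host libraries (SD, n = 4 each), and the difference of -0.85 did not pass the test (exact permutation p = 0.17, adjusted p = 0.17). Removal of the WT host library of 2414 cells gave -0.49 and removal of that of 3791 cells -1.32 (exact permutation, adjusted p = 0.40 and 0.11). Caudal epiblast cells numbered 4.08, 1.49, 3.21 and 1.81 per PGC in the Eomes-KO libraries, against 55, 2.75, 23.4 and 31 in the WT host libraries, where PGCs numbered only 1 to 9 per library. Of all cells with one of the 4 caudal labels, caudal epiblast made up 45.4%, 29.4%, 26.0% and 36.0% in the Eomes-KO libraries, against 33.5%, 8.30%, 50% and 35.2% in the WT host libraries. The means of 34.2% ± 8.52 in Eomes-KO and 31.8% ± 17.3 in WT host libraries (SD, n = 4 each) differed by less than the spread between libraries.

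The labels came from mapping each cell to a reference atlas of E7.5 to E8.5 mouse embryos and from the 15 nearest atlas cells, so each cell also had an original atlas label, a label from the extended atlas and a mapped stage. These come from the same 15 neighbours and are not independent of the caudal epiblast label. The original label was caudal epiblast in all 891 cells. The extended label was caudal epiblast in 444 of 448 Eomes-KO cells and in 438 of 443 WT host cells. The other 9 cells were called ectoderm (3), NMPs (2), non-neural ectoderm (2) and spinal cord progenitors (2), all labels of the ectoderm or its posterior neighbours and none of mesoderm. Per library, 99.2% ± 0.930 of Eomes-KO and 99.3% ± 0.925 of WT host caudal epiblast cells kept the label (SD, n = 4 each, exact permutation p = 1).

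The extended annotation drew the caudal epiblast wider. It gave the label to 1541 cells, 877 Eomes-KO and 664 WT host, of which 882 (57.2%) were caudal epiblast in the combined annotation. A further 483 (31.3%) were caudal mesoderm and 130 were NMPs. The remaining 46 cells were caudal neurectoderm (35), spinal cord (6) and surface ectoderm (5). Thus 483 of all 645 caudal mesoderm cells (74.9%) carried the extended label caudal epiblast, against 130 of 971 NMPs (13.4%).

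The makeup of the extended label was then compared between genotypes, and no share passed the test after adjustment. Caudal mesoderm cells were 28.9%, 42.7%, 47.1% and 31.8% of the cells with the extended label in the Eomes-KO libraries, against 12%, 25%, 23.0% and 17.2% in the WT host libraries. All 4 Eomes-KO libraries were higher than all 4 WT host libraries, with means of 37.6% ± 8.67 in Eomes-KO and 19.3% ± 5.88 in WT host (SD, n = 4 each). The exact permutation test gave p = 0.029, the smallest possible, and adjusted p = 0.14 over the 5 shares of this kind that were compared. With the extended label in place of the combined one, the abundance difference was larger, with a log2 fold change of 1.73 (adjusted p = 0.0014, edgeR). The shares of epiblast-derived cells were then 12.6%, 12.4%, 11.5% and 7.91% in the Eomes-KO libraries, against 3.13%, 1.17%, 6.17% and 2.85% in the WT host libraries.

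**Figure D2:**
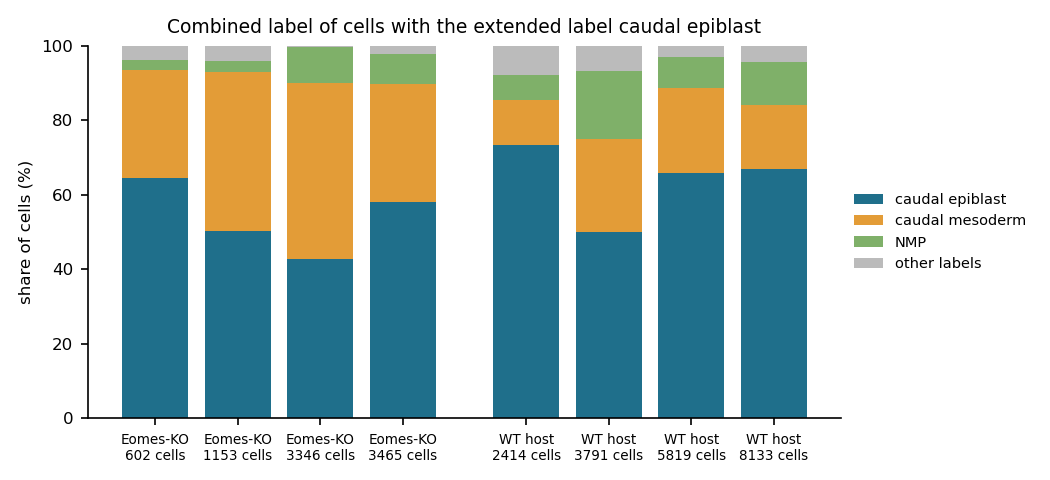
Cells whose extended atlas label is caudal epiblast, split by their combined label (% of such cells, stacked bars), 1 bar per library with Eomes-KO left of WT host. Caudal mesoderm is 28.9% to 47.1% of these cells in Eomes-KO and 12% to 25% in WT host libraries.

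Label scores, each the fraction of the 15 atlas neighbours with the transferred label, described how firmly the cells were placed. Under the original labels the mean score of caudal epiblast cells was 0.788, 0.759, 0.786 and 0.812 in the Eomes-KO libraries, against 0.733, 0.797, 0.781 and 0.751 in the WT host libraries. In every library it was lower than that of the other epiblast-derived cells, with a mean difference of -0.076 (exact sign-flip test over 8 libraries, adjusted p = 0.023 over 9 measures). Under the extended labels the order turned. Caudal epiblast cells scored 0.954, 0.915, 0.880 and 0.922 in the Eomes-KO libraries, against 0.905, 0.870, 0.875 and 0.876 in the WT host libraries, above the other cells in 8 of 8 libraries and by 0.104 on average (exact sign-flip test, adjusted p = 0.023). The low original score and the rise were not particular to the caudal epiblast. Over all cells of a label, the original score was 0.722 for caudal mesoderm and 0.778 for caudal epiblast. Caudal mesoderm rose to 0.764 under the extended labels, while NMPs fell from 0.858 to 0.614. Of 33 types 10 rose, and the caudal epiblast ranked 2 by its rise.

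Within single cells, the extended score was above the original one in 586 of 891 caudal epiblast cells, equal in 182 and below in 123. Averaged over libraries, the gain was 0.124 ± 0.037 for caudal epiblast and -0.057 ± 0.028 for the other cells (SD, n = 8), a difference of 0.181. This difference sums the score differences given above, so a test of it is not separate evidence. All 15 neighbours carried the extended label in 205 of 448 Eomes-KO cells (45.8%) and 152 of 443 WT host cells (34.3%), while all 15 carried the original label in 86 (19.2%) and 72 (16.3%). A minority was weakly placed under the original labels, with fewer than 8 neighbours in 27 Eomes-KO and 36 WT host cells.

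Between genotypes, no score passed the test after adjustment. The extended score averaged 0.918 ± 0.030 in Eomes-KO and 0.881 ± 0.016 in WT host libraries (SD, n = 4 each, exact permutation p = 0.057, adjusted p = 0.17 over 3 scores), and the original score 0.786 ± 0.022 and 0.766 ± 0.029 (adjusted p = 0.34, exact permutation test). The shortfall of the original score against the other cells of the library was -0.049 ± 0.023 in Eomes-KO and -0.104 ± 0.024 in WT host libraries, without overlap (exact permutation p = 0.029, adjusted p = 0.13 over 9 measures). The other cells themselves scored lower in Eomes-KO, at 0.835 ± 0.007 against 0.869 ± 0.007 in WT host libraries (SD, n = 4 each), without overlap. The gap in the shortfall thus also holds a difference between the other cells. With NMPs as the other cells, Eomes-KO minus WT host was 0.059 (exact permutation p = 0.20, adjusted p = 0.45). The part of the makeup of the other cells was not tested. Caudal epiblast cells of both genotypes drew on a broad set of atlas cells. The 891 cells had 608 distinct closest atlas cells, 343 for each genotype and 78 common to both, and 457 of the 608 were used once.

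**Figure D3:**
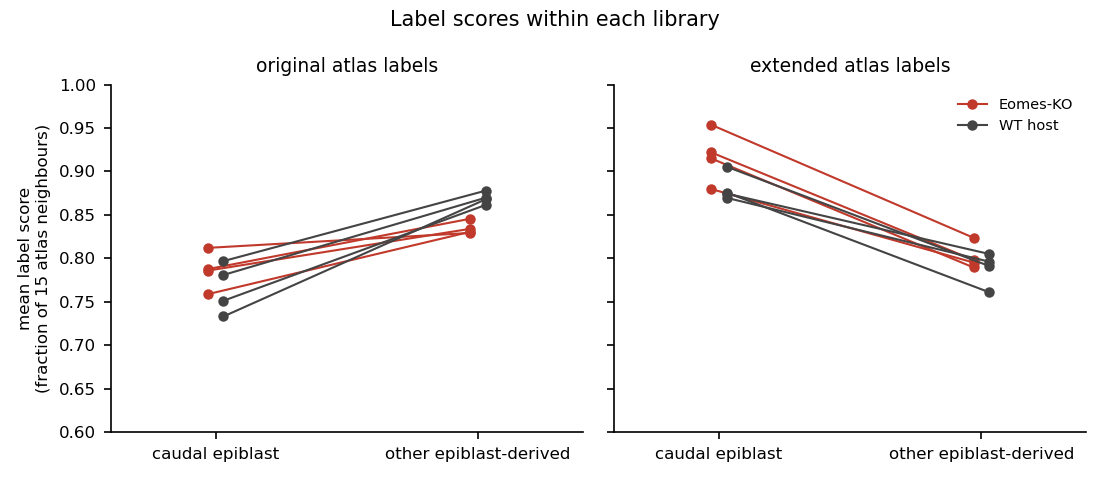
Mean label score (fraction of the 15 atlas neighbours, vertical axis from 0.6 to 1) of caudal epiblast and of other epiblast-derived cells, 1 line per library, Eomes-KO in red and WT host in grey, for original and extended atlas labels. Caudal epiblast cells lie below the other cells of their library in the left panel (mean difference -0.076) and above them in the right panel (0.104).

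The mapped stage gives the embryonic age of the atlas cells that a cell resembled. It comes from the same atlas neighbours as the label, so it may reflect the ages at which the atlas holds that label. Caudal epiblast cells mapped mostly to E8.0, 360 of 448 in Eomes-KO (80.4%) and 298 of 443 in WT host (67.3%). Stage E8.25 took 41 Eomes-KO cells (9.15%) and 108 WT host cells (24.4%), E7.75 took 43 and 34, and E7.5 took 4 and 3. None of the 891 cells mapped to E8.5, which allows a share of up to 0.337% (3 of 891 cells), although 25.3% of all epiblast-derived cells mapped there. E8.5 was also rare among caudal mesoderm cells, at 0% to 1.30% of such cells in the Eomes-KO libraries and 0% to 7.14% in the WT host libraries.

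The share at E8.25 was 2.04%, 2.74%, 15.6% and 7.55% in the Eomes-KO libraries, against 9.09%, 18.2%, 33.6% and 18.1% in the WT host libraries. The groups overlapped in 1 library of each, since the Eomes-KO library of 3346 cells exceeded the WT host library of 2414 cells. The means were 6.97% ± 6.23 in Eomes-KO and 19.7% ± 10.2 in WT host libraries, a difference of -12.8 percentage points (SD, n = 4 each, exact permutation p = 0.057, adjusted p = 0.23 over 4 stages). Without the WT host library of 5819 cells the difference was -8.14 percentage points (exact permutation, adjusted p = 0.40). At E8.0 the means were 83.1% ± 9.03 in Eomes-KO and 71.3% ± 9.08 in WT host libraries (adjusted p = 0.23, exact permutation test). At E7.75 they were 8.44% ± 4.64 and 8.49% ± 9.34 (adjusted p = 1, exact permutation test). No stage passed the test after adjustment.

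**Figure D4:**
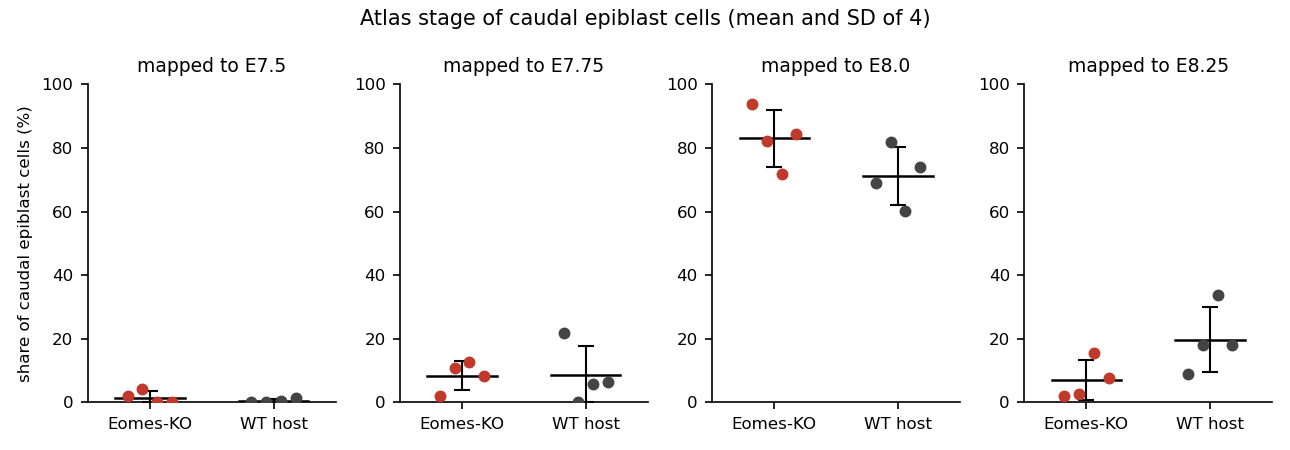
Share of the caudal epiblast cells of each library (%, vertical axis) that mapped to atlas stages E7.5, E7.75, E8.0 and E8.25, Eomes-KO (red) left of WT host (grey), with lines for the mean and bars for 1 SD of 4 libraries (cut at 0). E8.0 holds 83.1% in Eomes-KO and 71.3% in WT host libraries on average, and the groups overlap at every stage.

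Taken as a number, the mean mapped day was 7.99, 7.96, 8.01 and 8.0 in the Eomes-KO libraries, against 7.97, 8.05, 8.07 and 8.02 in the WT host libraries. Eomes-KO minus WT host was -0.037 day (exact permutation p = 0.17), and -0.057 day without the WT host library of 2414 cells (exact permutation p = 0.029). The other epiblast-derived cells also mapped slightly earlier in Eomes-KO, with means of 8.17 ± 0.038 days in Eomes-KO and 8.23 ± 0.053 in WT host libraries (SD, n = 4 each, exact permutation p = 0.11, adjusted p = 0.29 over 5 cell groups). Caudal epiblast minus the other cells was -0.179 day in Eomes-KO and -0.202 in WT host libraries (exact permutation, adjusted p = 0.61). Libraries of one genotype also differed in the mapped stage of their other cells. Among WT host libraries, that of 3791 cells had the latest mean day of other cells, 8.30, and the lowest caudal epiblast share, 0.585%, and that of 5819 cells had the earliest, 8.19, and the highest share, 4.09%. Among Eomes-KO libraries, that of 3346 cells had the latest mean day of other cells, 8.22, with a share of 4.99%, while the lowest share, 4.59%, went with a mean day of 8.15. The part of embryo stage in the difference between genotypes was not tested.

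Against its neighbours in the same library, the caudal epiblast mapped earlier than NMPs in 8 of 8 libraries, with a mean difference of -0.33 day (exact sign-flip test, adjusted p = 0.012). It mapped earlier than caudal mesoderm in 7 of 8 libraries, with a mean difference of -0.055 day (adjusted p = 0.016, exact sign-flip test) and later than PGCs by 0.149 day in 8 of 8 (adjusted p = 0.012, exact sign-flip test). In the WT host libraries the PGC values rested on 1, 8, 9 and 5 cells. The difference from PGCs was 0.023 day in the WT host library of 8133 cells. On average, PGCs thus mapped earliest and NMPs latest of the 4 caudal labels. Label and mapped stage of a cell were both read from the same atlas neighbours. These sign-flip tests therefore cannot separate the age of the cells from the ages at which the atlas holds each label. With cells of at least 10000 UMIs, which left 7 libraries with caudal mesoderm and 6 with PGCs, the differences were of like size, -0.054 day from caudal mesoderm and 0.151 day from PGCs, and both had adjusted p = 0.063 in the exact sign-flip test.

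Depth differed between the genotypes. Caudal epiblast cells had a median of 36548, 20529, 18258 and 9528 UMIs in the Eomes-KO libraries, against 8122, 8929.5, 10902 and 5124 in the WT host libraries. Median genes detected per cell were 5767, 4340, 4106 and 2943 in the Eomes-KO libraries, against 2743, 2832, 3179 and 2036 in the WT host libraries. Only the Eomes-KO library of 3465 cells fell within the WT host range for both measures. Neither difference passed the exact permutation test after adjustment over 5 measures (p = 0.057, adjusted p = 0.14 for each).

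Most of the depth difference was common to all cells of a library. Within a library, caudal epiblast and the other epiblast-derived cells differed by 0.02 in log2 median UMIs (exact sign-flip test, adjusted p = 0.73). By genotype the log2 difference was 0.12 ± 0.03 in Eomes-KO and -0.07 ± 0.13 in WT host libraries (SD, n = 4 each, exact permutation p = 0.029, adjusted p = 0.13 over 9 measures). Among caudal epiblast cells, 48, 65, 148 and 67 of the Eomes-KO libraries had at least 10000 UMIs, against 18, 7, 132 and 1 of the WT host libraries. With only cells of at least 10000 UMIs in every type, the abundance difference was a log2 fold change of 1.43 (adjusted p = 0.017, edgeR), although the WT host library of 8133 cells then rested on 1 caudal epiblast cell.

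A split of the caudal epiblast cells of each library into deeper and shallower cells at the median, chosen after seeing the data, put depth beside the stage. The E8.25 share was 16.5% in the deeper and 10.3% in the shallower cells, higher in the deeper cells in 6 of 8 libraries (exact sign-flip p = 0.063, adjusted p = 0.088 over 5 measures). The Eomes-KO libraries, deeper on average, had the lower mean E8.25 share, and a split within libraries does not bear on differences between them. The part of depth in the stage and score values was not tested further. None of the other quality measures passed the test. Library medians of the mitochondrial percent per cell averaged 1.64% ± 0.144 in Eomes-KO and 1.69% ± 0.191 in WT host libraries. Those of the ribosomal percent averaged 26.9% ± 0.921 and 25.9% ± 1.02, and those of the doublet score 0.22 ± 0.067 and 0.225 ± 0.03 (SD, n = 4 each, exact permutation tests, adjusted p = 0.68, 0.38 and 1). With cells of a doublet score under 0.25 alone, the log2 fold change of the caudal epiblast share was 1.84 (adjusted p = 0.0012, edgeR). That filter need not act alike on the genotypes. Median doublet scores of caudal epiblast minus other cells were 0, -0.02, -0.08 and 0.06 in Eomes-KO libraries. In WT host libraries they were 0.03, 0.07, 0.07 and 0.03. The part of the filter in the larger value was not tested.

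**Figure D5:**
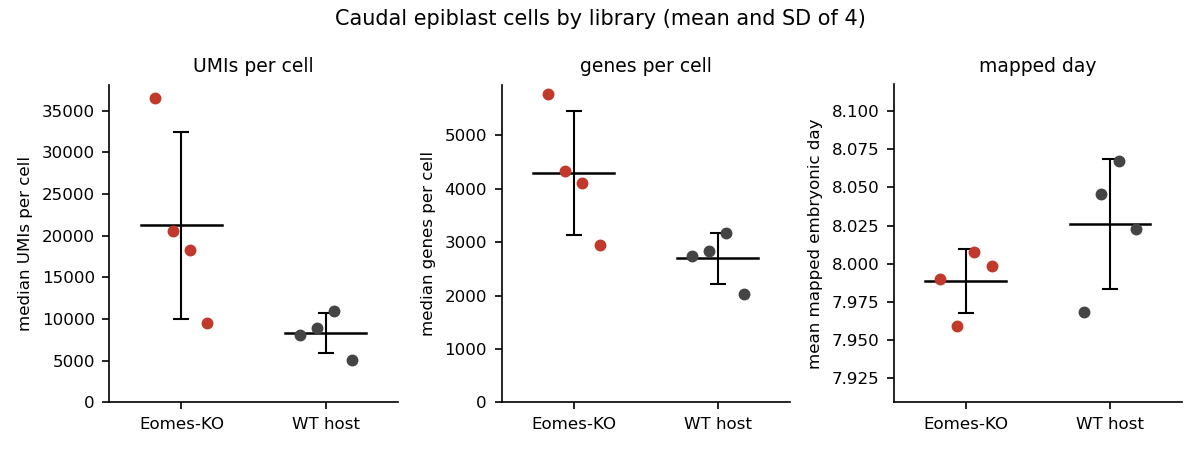
Median UMIs per cell, median genes per cell and mean mapped embryonic day (axis not from 0) of the caudal epiblast cells of each library, Eomes-KO (red) left of WT host (grey), with lines for the mean and bars for 1 SD of 4 libraries. Median UMIs run from 9528 to 36548 in Eomes-KO and from 5124 to 10902 in WT host libraries.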

How the data were processed

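The authors sorted dissociated embryos by tdTomato, prepared 10x 3' v3 libraries and ran Cell Ranger 6.0.1 against mm10 plus tdTomato to count UMIs. For each cell the deposited table gives counts of UMIs and genes, the mitochondrial and ribosomal percent of UMIs as deposited, and the doublet score of the authors, who removed cells above 0.5. The authors mapped cells to atlas cells and deposited for each label the fraction of 15 neighbours that carry it. A filter on UMIs and genes had been applied, with minima in the table of 3163 and 1500.

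The genotype of a library came from the tdTomato status of its cells. The members, labels and tests were chosen with earlier results of these data known. Labels named in the text were, by rule, caudal epiblast, extended and original labels with at least 10 caudal epiblast cells, every mapped stage, and NMP, caudal mesoderm and PGC. The 9 cells with rarer extended labels and the combined labels of the extended caudal epiblast were named after their values were seen. Cells are not replicates and entered as sums, medians or means per library. The 4 libraries of a genotype were treated as separate pools, as the methods describe, and p-values set differences against the spread between libraries. The permutation and edgeR tests left out the pool that an Eomes-KO and a WT host library share.

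Cells per type were compared in R 4.3.3 by edgeR 4.0.16 (glmQLFit and glmQLFTest), with epiblast-derived cells as library size, no further scaling, a minimum of 10 cells per type and a threshold of 0.05 after Benjamini-Hochberg adjustment. The standard error is the log2 fold change over the root of F. The fit was also run on simulated data with fewer types changed, in equal numbers up and down. That run does not vouch for the calls in these data. Other values were compared in scipy 1.17.1 by exact two-sided permutation (70 arrangements) or exact sign flips over 8 libraries (256 patterns, smallest p 0.0078). The sign flips treat the Eomes-KO and WT host libraries of a pool as independent, although they come from the same embryos. Their p-values may therefore be too small. Alternatives were TMM, DESeq2 1.42.0, limma 3.58.1, other labels, denominators, filters and summaries, and each library left out. Within a genotype, the composition of any 2 libraries differed beyond sampling noise.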

Additional observations from a re-analysis of the deposited data

Results flagged for a closer look

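In 4 groups of 4 libraries, of 58 searched, 1 library stood apart from the other 3 by Dixon's criterion. Chance alone gives about 1 in 20, or 2.9 of 58. In the Eomes-KO library of 602 cells, caudal epiblast cells exceeded the other cells by 0.17 in log2 median UMIs, the largest such excess of the Eomes-KO libraries. In the Eomes-KO library of 3346 cells, the extended label score of caudal epiblast cells exceeded that of other cells by 0.085, the smallest excess among Eomes-KO libraries. In the WT host library of 5819 cells, the caudal epiblast minus NMPs was -0.276 day in mapped stage, the smallest gap among WT host libraries. In the WT host library of 2414 cells, the mean extended label score was 0.905, the highest among WT host libraries.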

How the results depend on the processing

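The caudal epiblast share kept its direction in every alternative run. Its log2 fold change was 1.16 with TMM, 2.0 with DESeq2's poscounts size factors, 1.66 with limma and 1.50 over all cells, and 0.55 with DESeq2's ratio size factors, where it missed the threshold. Leaving out 1 library at a time gave 1.09 to 1.89, and only the WT host library of 8133 cells ended the call. The mean share differed by 3.08 to 4.41 percentage points with 1 library left out. The difference in the log2 balance to NMPs ran from 0.75 to 2.12. That to caudal mesoderm ran from -1.32 to -0.49 and the E8.25 difference from -16.3 to -8.14 points. The mean mapped day differed by -0.057 to -0.023, and passed the threshold without the WT host library of 2414 cells alone. The 2 DESeq2 fits used a local dispersion trend, which was chosen after seeing the data. With at least 10000 UMIs, the mapped stage differences from caudal mesoderm (-0.054 day) and PGCs (0.151 day) missed the threshold. The share with the extended label differed by -0.07 percentage points, by 0.182 with an extended score of at least 0.5, and by -0.476 to 0.264 with 1 library left out. None of the other sign changes concerned a called result. With 1 library left out, Eomes-KO minus WT host ran from -2.88 to 4.39 points for the share at E7.75, from -0.103 to 0.028 for mitochondrial percent, from -0.028 to 0.025 for doublet score and from -0.044 to 0.103 for mitochondrial percent of caudal epiblast minus other cells. Eomes-KO minus WT host became 0.0041 points for mitochondrial percent and 0.0013 for doublet score with means, and 0.14 points for mitochondrial percent at 10000 to 30000 UMIs. With NMPs as the other cells, caudal epiblast differed by -0.21 points in ribosomal percent and -0.0038 in doublet score, and the genotypes' differences became -0.19 points for mitochondrial percent and -0.017 for mapped day. Without the Eomes-KO library of 3346 cells caudal epiblast minus other cells was -0.005 points in mitochondrial percent (-0.005 to 0.058 over all libraries left out), and without the WT host library of 3791 cells 0.012 in stage score (-0.015 to 0.012). Against NMPs, mitochondrial percent (0.218 points) and stage score (-0.11) passed the threshold. The cause of these changes was not tested. No paired analysis was possible because library names do not show the embryo pool. The test of extended labels with edgeR was not run, since 1 label alone had at least 10 cells. The 22 caudal epiblast cells of the WT host library of 3791 cells limit what its stages can show.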
